A study of Mus musculus with 6 samples.

Results

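The genes described here are 10 transcription factors that direct the formation and repair of skeletal muscle: the paired-box factors *Pax7* and *Pax3*, the myogenic regulatory factors (MRFs) *Myf5*, *Myod1*, *Myog* and *Myf6*, the repressor *Msc*, and the myocyte enhancer factors *Mef2c*, *Mef2a* and *Mef2d*. They were chosen by name and function with earlier results of these data known. The study had already reported *Msc* and *Pax7* as higher in the mutant muscle. All 10 were found among the 23997 gene symbols of the deposited files. RNA of the gastrocnemius, the large mixed-fiber muscle of the calf, was sequenced in 6 mice, 1 library per mouse. The study asked how an activating *Hras* mutation, the cause of Costello syndrome, alters transcription in skeletal muscle.

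The *HrasG12V* group held mice 2276, 2278 and 2279, of the genotype Caggs-Cre+/HrasG12V/+. Littermates 2277, 2280 and 2281 formed the wild-type (WT) group, of the genotype Caggs-Cre-/HrasflG12V/+. All 6 mice were 21 days old, and both groups therefore carried one targeted *Hras* allele on a mixed strain background. In the WT mice this allele was not recombined, since they lacked Cre. In the mutants Cre was driven by the ubiquitous Caggs promoter, and the mutant allele was expressed under the intrinsic *Hras* promoter. The design did not confine the mutation to muscle, so these libraries cannot separate effects within muscle from effects of other tissues. Summed *Hras* transcripts do not tell the alleles apart. Total *Hras* ranged from 36 to 51.8 FPKM in WT and from 16.0 to 58.8 FPKM in *HrasG12V* mice, so the genotypes overlapped.

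During myogenesis, Pax3 and Pax7 mark the precursors, Myf5 and MyoD commit cells to the muscle lineage, and myogenin starts their terminal differentiation. In postnatal muscle Pax7 is kept in satellite cells, the stem cells that lie beside the fibers, whereas Myf6 (MRF4) and the MEF2 proteins are chiefly products of the fiber nuclei. The MRFs bind the E-box as dimers with E proteins, and MEF2 proteins bind AT-rich sites and act together with the MRFs. Musculin, the product of *Msc*, binds the same E-boxes and represses.

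The promoter of *Myog* holds matches to the motifs of both the MRFs and MEF2. The 250 bases before its RefSeq start (GRCm38.p6, chr1:134289754-134290003, plus strand) are printed with the matches in capitals, and the first *Mef2c* promoter (chr13:83503784-83504033, plus strand) is printed beside it, as the promoter of the most abundant of the 10 factors.
Myog: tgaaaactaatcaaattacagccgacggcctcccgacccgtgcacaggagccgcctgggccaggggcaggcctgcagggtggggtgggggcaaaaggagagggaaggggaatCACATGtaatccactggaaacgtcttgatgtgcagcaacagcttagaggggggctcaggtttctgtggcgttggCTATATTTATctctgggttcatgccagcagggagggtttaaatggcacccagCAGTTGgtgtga
Mef2c: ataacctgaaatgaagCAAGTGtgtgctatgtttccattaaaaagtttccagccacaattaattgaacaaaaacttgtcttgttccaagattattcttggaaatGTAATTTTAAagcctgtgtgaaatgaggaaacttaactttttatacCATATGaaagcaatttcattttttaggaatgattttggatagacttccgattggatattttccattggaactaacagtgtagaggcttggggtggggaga

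In the *Myog* window the capitals mark, from left to right, an E-box (CANNTG) at 138 to 133 bases before the start, the MEF2 core motif at 64 to 55 and a second E-box at 12 to 7. In the *Mef2c* window they mark E-boxes at 234 to 229 and 100 to 95 and a MEF2 core motif at 146 to 137. Motifs were searched on both strands. Of 32851 mouse promoters of the same length, 66.2% held an E-box and 8.48% the MEF2 core motif. RefSeq promoters were matched for 6 of the 10 genes, *Pax7*, *Myf5*, *Myog*, *Mef2c*, *Mef2a* and *Mef2d*. Neither motif was found in the windows of *Pax7*, *Myf5*, *Mef2a* and *Mef2d*, and of the other 2 *Mef2c* promoters only the third held one, an E-box. A match gives the letters in the window and does not show that a protein was bound.

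Values are FPKM, read fragments normalised to transcript length and library size, which the authors scaled between libraries with Cuffnorm. Genotypes were compared with limma on log2(FPKM + 0.1) over the 13359 genes with a mean of at least 0.5 FPKM, so fold changes of low genes are understated. Read counts were not used here, and depth is known only as the nominal number of reads per library that the methods state. FPKM totals were 413020 to 814013 per library, while the median over tested genes lay between 6.39 and 6.64 FPKM in each. The library of *HrasG12V* mouse 2276 stood apart. Its values lay a median of 0.60 above the WT mean on the log2 scale for genes whose longest transcript is under 2000 bases and fell by a median of 0.49 for those over 5000 bases, against -0.12 to 0.02 in the other 5 libraries. Transcripts of lymphocytes marked the 2 other *HrasG12V* libraries. The summed FPKM of 6 B cell markers was 0.655 to 1.19 in WT mice, 1.37 in mouse 2276, 81.9 in mouse 2278 and 65.7 in mouse 2279, and that of 6 T cell markers was 0.691 to 0.882, 1.04, 27.3 and 36.4. In a whole muscle, more cells of a type and more RNA per cell cannot be told apart.

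All 10 factors were listed above 0 in every mouse, over a wide range of levels. FPKM is scaled by length, so levels were compared between genes, with the limit that mouse 2276 read high for short and low for long transcripts. In WT muscle the order of mean FPKM was *Mef2c*, *Mef2d*, *Myf6*, *Mef2a*, *Myog*, *Myod1*, *Msc*, *Myf5*, *Pax7* and *Pax3*, and the only neighbours whose ranges overlapped were *Myog* with *Myod1*, *Msc* with *Myf5* and *Myf5* with *Pax7*. By the mean over all 6 mice, *Mef2c* was higher than 96.4% of the genes tested and *Pax7* than 14.3%. In *HrasG12V* muscle the order of the means was the same, but more neighbours overlapped: every pair of neighbours from *Mef2d* down to *Myod1* did, as did *Myf5* with *Pax7*, while *Msc* and *Myf5* no longer did. The overlaps of *Mef2a* with *Myog* and of *Myog* with *Myod1* were absent without mouse 2276.

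*Msc* was 2.48-fold and *Pax7* 1.5-fold higher in *HrasG12V* than in WT muscle, and the 3 MRFs of committed cells and fibers (*Myod1*, *Myog*, *Myf6*) and the 3 MEF2 genes overlapped between the genotypes. Of the 9 genes tested, *Msc* and *Pax7* were past an unadjusted limma p of 0.05 and none was lower. Over all 13359 genes, 10.2% passed this limit, 5.18% higher and 4.99% lower. None of the 9 passed the adjusted limit of 0.05, which 0.0599% of all genes did. Every *HrasG12V* mouse was above every WT mouse for 3 of the 9, *Pax7*, *Myf5* and *Msc*, against 8.11% of all genes, and none was below throughout, against 10.4%. With libraries scaled to the same total FPKM, 2 were above throughout, *Myf5* and *Msc*, since *Pax7* in mouse 2276 was then at 1.05 FPKM beside 1.09 to 1.31 in WT mice. The share of all genes above throughout under this scaling is not given here, so that count has no background beside it. The log2 fold change was above 0 for 5 and below 0 for 4, with a median of 0.03 beside -0.03 over all genes tested.

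**Figure D1:**
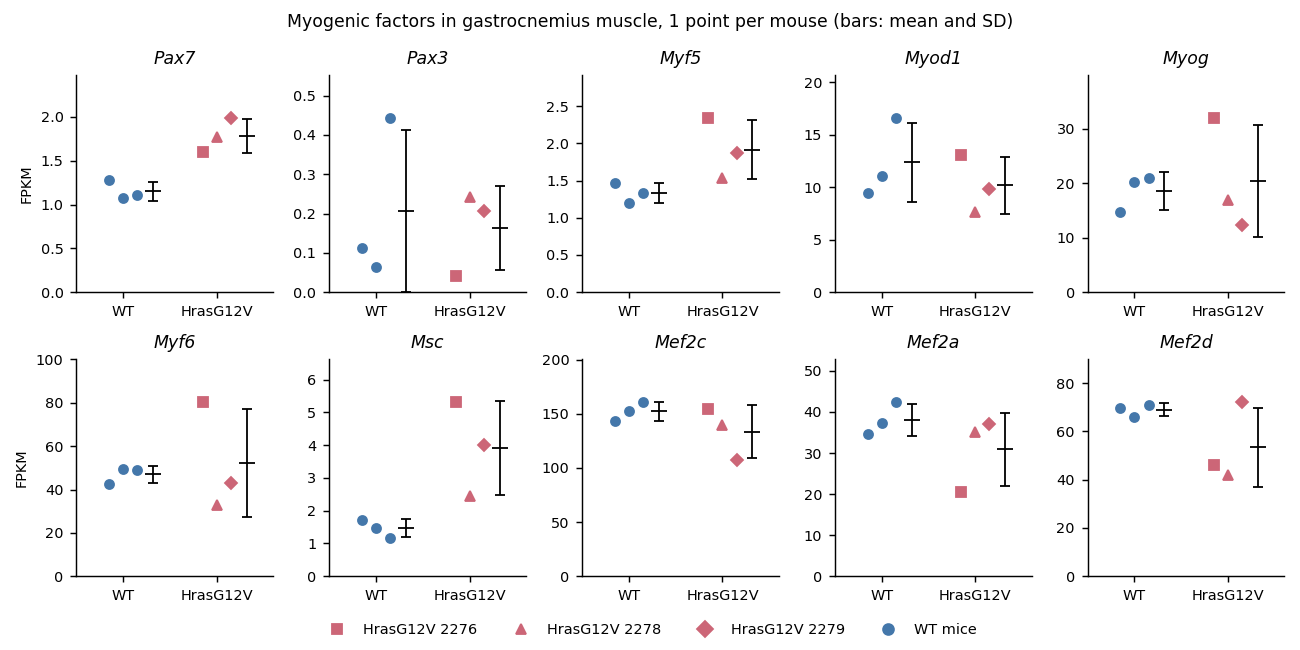
FPKM of the 10 factors in each mouse, on linear axes from 0, with WT mice as circles and HrasG12V mice 2276, 2278 and 2279 as a square, a triangle and a diamond. Horizontal and vertical bars give the mean and SD of 3 mice. The genotypes are apart for *Pax7*, *Myf5* and *Msc* and overlap for the other 7.

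*Pax7* (ENSMUSG00000028736.13, chromosome 4 from 139737062 to 139833528, minus strand, GRCm38) had FPKM of 1.28, 1.08 and 1.11 in WT mice (here and for each gene in the order 2277, 2280, 2281) and of 1.6, 1.77 and 1.99 in *HrasG12V* mice (in the order 2276, 2278, 2279). The lowest mutant thus exceeded the highest WT mouse. The means were 1.15 ± 0.109 and 1.78 ± 0.194 FPKM (SD, n = 3 mice each). The log2 fold change of 0.59 had an SE of 0.20 and a 95% confidence interval of 0.10 to 1.07 (limma, unadjusted p = 0.0241, adjusted p = 0.454). The call was lost without WT mouse 2280 (0.54, limma unadjusted p = 0.0723), without WT mouse 2281 (0.56, limma unadjusted p = 0.0661) and when libraries were scaled to the same total FPKM (0.58, limma unadjusted p = 0.208). With the transcript length trend of each library removed, the log2 fold change was 0.76 (limma, unadjusted p = 0.00551, adjusted p = 0.361). *Pax7*, with a transcript of 5854 bases, was lowest among the mutants in mouse 2276 before this step and highest after it.

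*Pax3* (ENSMUSG00000004872.15, chromosome 1 from 78101267 to 78197134, minus strand), which acts beside *Pax7* in the embryo and is retained in the satellite cells of a few muscles, was at 0.112, 0.0650 and 0.443 FPKM in WT and 0.0413, 0.241 and 0.208 FPKM in *HrasG12V* mice. WT mouse 2281 alone set the upper end of the range. The mean over the 6 mice was below 0.5 FPKM and *Pax3* was therefore not tested with the other genes. Without the filter its log2 fold change was -0.12 with an SE of 0.56 (limma, unadjusted p = 0.838).

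Among the 4 MRFs, only *Myf5* was apart between the genotypes. *Myf5* (ENSMUSG00000000435.1, chromosome 10 from 107482908 to 107486134, minus strand), the earliest MRF of the embryo and a mark of most satellite cells, was at 1.47, 1.2 and 1.34 FPKM in WT and 2.34, 1.54 and 1.87 FPKM in *HrasG12V* mice. Mouse 2278 was only just above the highest WT mouse. The means were 1.34 ± 0.133 and 1.92 ± 0.401 FPKM, and the log2 fold change of 0.48 (SE 0.22, 95% confidence interval -0.06 to 1.01) did not pass the test (limma, unadjusted p = 0.0733, adjusted p = 0.537). It did so when mouse 2278 was left out (0.61, limma unadjusted p = 0.0314). *Myf5* and *Pax7* were at like levels in both genotypes, with overlapping ranges.

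*Myod1* (ENSMUSG00000009471.4, chromosome 7 from 46376474 to 46379099, plus strand), the determination factor of activated myoblasts, was at 9.46, 11.1 and 16.6 FPKM in WT and 13.1, 7.67 and 9.79 FPKM in *HrasG12V* mice. The genotypes overlapped, with means of 12.4 ± 3.74 and 10.2 ± 2.73 FPKM. Its log2 fold change was -0.27, with a 95% confidence interval of -0.95 to 0.41 (limma, adjusted p = 0.795). It was -0.04 without WT mouse 2281, -0.09 without mutant 2278, -0.44 without WT mouse 2277 and -0.47 without mutant 2276.

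*Myog* (ENSMUSG00000026459.5, chromosome 1 from 134289989 to 134292548, plus strand), which encodes myogenin, was at 14.6, 20.2 and 21.0 FPKM in WT and 31.9, 16.9 and 12.3 FPKM in *HrasG12V* mice. The mutants thus held both the highest and the lowest of the 6 values. The means were 18.6 ± 3.48 and 20.4 ± 10.3 FPKM, with a log2 fold change of 0.03 (95% confidence interval -0.84 to 0.91, limma adjusted p = 0.990). The value was -0.35 without mouse 2276 and -0.13 without WT mouse 2277, so no direction can be given.

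*Myf6* (ENSMUSG00000035923.4, chromosome 10 from 107492853 to 107494737, minus strand), the neighbour of *Myf5* and the MRF of mature fibers, was at 42.5, 49.7 and 49.0 FPKM in WT and 80.3, 32.9 and 43.2 FPKM in *HrasG12V* mice. Its WT values were close together, and mouse 2276 was far above the other 5. The means were 47.1 ± 3.93 and 52.2 ± 24.9 FPKM, with a log2 fold change of 0.05 (95% confidence interval -0.77 to 0.86, limma adjusted p = 0.981). This value was -0.31 without mouse 2276 and -0.02 without WT mouse 2277.

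*Msc* (ENSMUSG00000025930.6, chromosome 1 from 14753346 to 14755992, minus strand) had the largest log2 fold change of the 9. Its FPKM was 1.72, 1.49 and 1.18 in WT and 5.32, 2.44 and 3.99 in *HrasG12V* mice. All mutants were above all WT mice, and mouse 2278 was the nearest to them. The log2 fold change was 1.31 (SE 0.31, 95% confidence interval 0.57 to 2.05, limma unadjusted p = 0.00439, adjusted p = 0.369). It stayed within 1.06 to 1.61 as each mouse was left out and was 1.24 with the length trend removed. Musculin is also known as a factor of activated B cells. On the log2 scale *Msc* was 1.81, 0.72 and 1.40 above the WT mean in mice 2276, 2278 and 2279, and 1.37, 0.83 and 1.51 above it with the length trend removed, beside B cell marker sums of 1.37, 81.9 and 65.7 FPKM in the same order. The part of B cells in the *Msc* values was not tested.

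*Mef2c* (ENSMUSG00000005583.16, chromosome 13 from 83504034 to 83667080, plus strand), the factor of this family with the highest level here, was at 144, 153 and 161 FPKM in WT and 154, 140 and 107 FPKM in *HrasG12V* mice. Mouse 2279 was the lowest of the 6, and mouse 2276 lay within the WT range. Its log2 fold change was -0.20 (95% confidence interval -0.75 to 0.35, limma adjusted p = 0.815). The value was -0.32 without mouse 2276, -0.05 without mouse 2279 and -0.02 with the length trend removed. *Mef2c* is also expressed in endothelium and B cells. The summed FPKM of 7 endothelial markers was 167 to 204 in WT and 144 to 150 in *HrasG12V* mice, with *Cdh5* and *Tie1* lower at an unadjusted limma p below 0.05, and the part of endothelium and B cells in the *Mef2c* values was not tested.

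*Mef2a* (ENSMUSG00000030557.17, chromosome 7 from 67231163 to 67372858, minus strand), a MEF2 gene of many tissues, was at 34.7, 37.2 and 42.4 FPKM in WT and 20.6, 35.1 and 37.0 FPKM in *HrasG12V* mice. Mouse 2276 was far below the rest, and the other mutants lay at the lower WT values. The log2 fold change was -0.34 (95% confidence interval -0.98 to 0.29, limma adjusted p = 0.711) and ranged from -0.50 to -0.08 as each mouse was left out.

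*Mef2d* (ENSMUSG00000001419.17, chromosome 3 from 88142372 to 88172086, plus strand), which has a muscle-specific splice form that these gene values do not resolve, was at 69.8, 66 and 71.0 FPKM in WT and 46.2, 41.7 and 72.1 FPKM in *HrasG12V* mice. Mice 2276 and 2278 were below all WT mice, while mouse 2279 was above them. The log2 fold change was -0.41 (SE 0.25, 95% confidence interval -1.01 to 0.19, limma unadjusted p = 0.148, adjusted p = 0.630). Without mouse 2279 it was -0.65 (limma, unadjusted p = 0.00776), and without mouse 2278 it was -0.26 (limma, unadjusted p = 0.332).

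**Figure D2:**
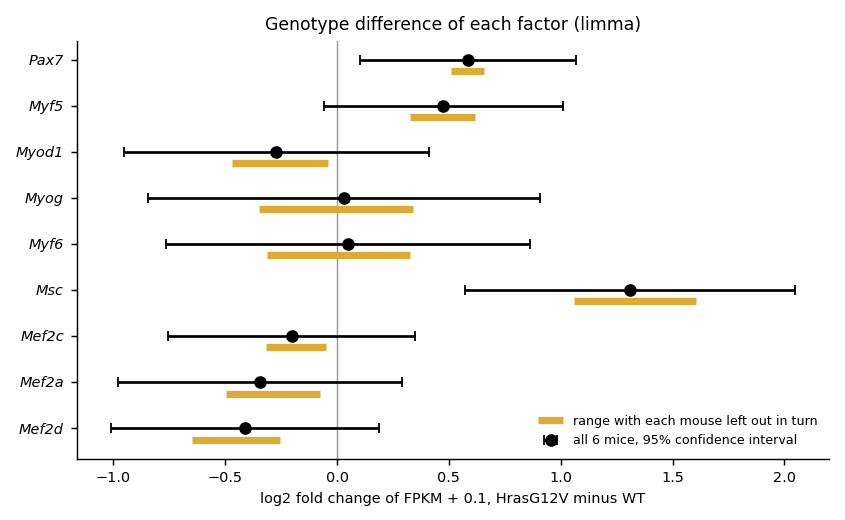
Log2 fold change of the 9 factors tested, HrasG12V minus WT on the log2(FPKM + 0.1) scale, with points and black bars for the estimate and its 95% confidence interval from limma and orange bars for the range as each mouse was left out. The intervals of *Pax7* and *Msc* lie above 0, and the orange bars of *Myog* and *Myf6* cross it.

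The mutants differed more among themselves than the WT mice did. The SD of the log2 values was larger among *HrasG12V* mice for 8 of the 9 factors, *Myod1* being the exception, but this was so for 86.8% of all genes tested. For *Mef2d* the SD was 0.05 in WT and 0.42 in *HrasG12V* mice, and for *Myf6* 0.12 and 0.66. Mouse 2276 had the highest value of the 6 for 4 factors, *Myf5*, *Myog*, *Myf6* and *Msc*, and the lowest for *Pax3* and *Mef2a*. The longest annotated transcripts of the first 4 span 1263 (*Myf6*) to 2083 (*Myf5*) bases, and those of the MEF2 genes 5401 (*Mef2d*) to 6277 (*Mef2c*) bases.

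The position of mouse 2276 relative to the WT mean changed once the length trend was removed. *Myf6* went from 0.77 to 0.14 on the log2 scale and *Myog* from 0.79 to 0.26, while *Mef2a* went from -0.88 to -0.50 and *Mef2d* from -0.58 to -0.21. *Mef2c* moved from near 0 to 0.50, *Msc* from 1.81 to 1.37 and *Pax7* from 0.44 to 0.87. *Pax7*, *Myf5* and *Msc* were the 3 factors whose genotypes did not overlap with this step as well. The share of all genes without overlap after this step is not given here. The fold changes of *Myog* and *Myf6* were then -0.060 and -0.064.

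**Figure D3:**
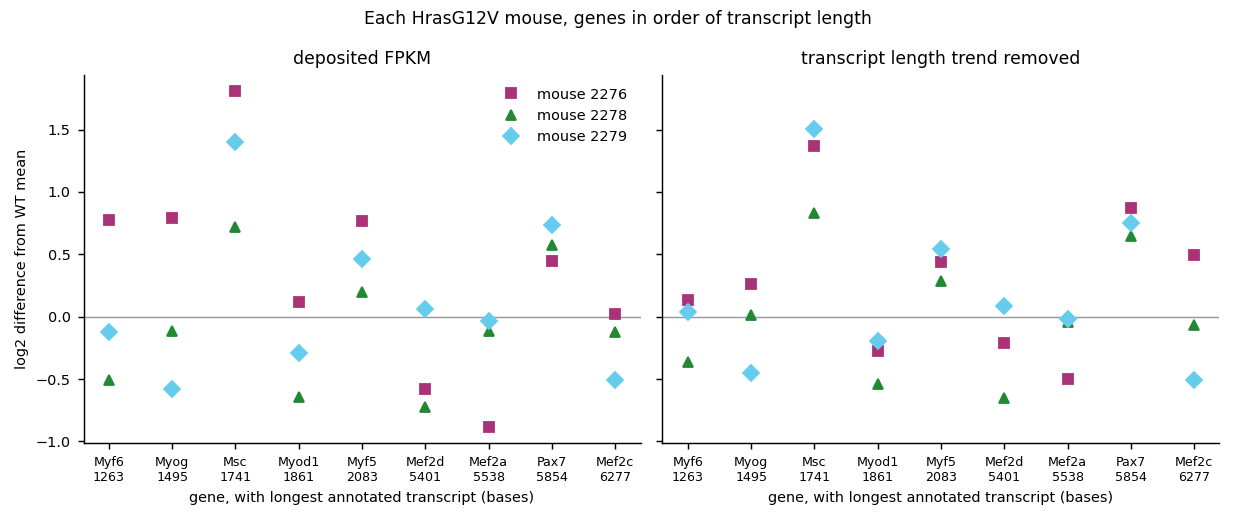
Log2 difference of each HrasG12V mouse from the WT mean for the 9 factors tested, in the order of their longest annotated transcript in bases, from the deposited FPKM at the left and with each library's length trend removed at the right. Mouse 2276 (squares) is highest for the short *Myf6* and *Myog* and lowest for *Mef2a* at the left, and nearer to the other mutants for these genes at the right.

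Ratios between factors in the same library do not depend on its overall scaling. These ratios and sums are given as descriptions without a test. *Msc* was at 18.2%, 13.4% and 7.13% of the *Myod1* FPKM in WT mice 2277, 2280 and 2281 and at 40.6%, 31.9% and 40.8% in *HrasG12V* mice 2276, 2278 and 2279. The transcripts of *Msc* and *Myod1* are of like length, 1741 and 1861 bases, and the genotypes were apart. *Pax7* was at 13.5%, 9.72% and 6.68% of *Myod1* in WT and 12.2%, 23.1% and 20.3% in *HrasG12V* mice. This ratio overlapped through mouse 2276 and WT mouse 2277. The *Pax7* transcript is longer than that of *Myod1* (5854 and 1861 bases), and with the length trend removed the log2 ratio against its WT mean was 1.15, 1.18 and 0.95 in the mutants and at most 0.49 in WT mice, without overlap. *Myog* was at 127% to 183% of *Myod1* in WT and 125% to 244% in *HrasG12V* mice, again overlapping.

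The 4 MRFs together were at 68.1 to 87.9 FPKM in WT and 59.1 to 128 FPKM in *HrasG12V* mice. *Myf6* made up the largest share of this sum in all 6, 55.7% to 62.5% in WT and 55.8% to 64.4% in *HrasG12V* mice, and the shares of the other 3 also overlapped. The 3 MEF2 genes together were at 248, 256 and 274 FPKM in WT and 221, 216 and 216 FPKM in *HrasG12V* mice. Their sum was thus lower in each mutant, although no single MEF2 gene was. On the log2 scale the gene farthest below the WT mean was *Mef2a* in mouse 2276, *Mef2d* in mouse 2278 and *Mef2c* in mouse 2279. All 3 have long transcripts, for which mouse 2276 read low, and with the same total FPKM the sum overlapped, at 254 to 279 FPKM in WT and 146, 270.5 and 281 FPKM in *HrasG12V* mice. With the length trend removed, mouse 2276 was at 0.50 for *Mef2c*, -0.50 for *Mef2a* and -0.21 for *Mef2d* relative to the WT mean on the log2 scale. The sum is not given for that step. *Mef2c* made up 57.9% to 59.6% of the sum in WT but 69.8%, 64.5% and 49.5% in mice 2276, 2278 and 2279.

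**Figure D4:**
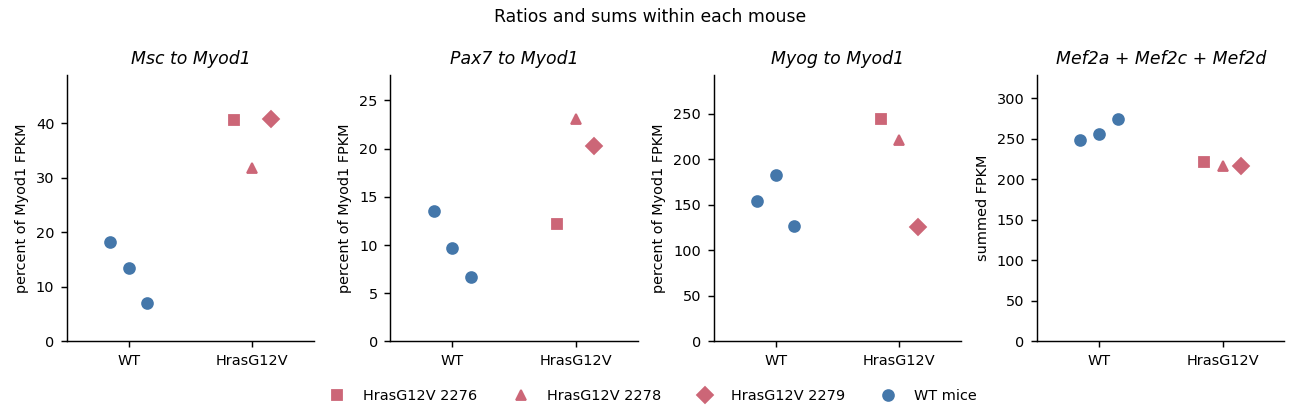
*Msc*, *Pax7* and *Myog* as a percent of *Myod1* FPKM and the summed FPKM of the MEF2 genes in each mouse, on linear axes from 0, with WT mice as circles and HrasG12V mice as in the plot of levels. The *Msc* ratio is 31.9% or more in every mutant and 18.2% or less in every WT mouse. The MEF2 sum is 221 FPKM or less in mutants and 248 or more in WT, but it overlaps with libraries scaled to the same total FPKM.

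The partners and inhibitors of the MRFs had 1 gene past the unadjusted limit, *Id2*, and this and the counts for the lists that follow stand beside the 10.2% of all genes that passed it, 5.18% higher and 4.99% lower. Of the 3 E proteins none passed the unadjusted limit, and *Tcf3* (E2A), with 7.33, 7.71 and 6.62 FPKM in WT and 8.40, 8.97 and 9.72 FPKM in *HrasG12V* mice, had the highest fold change (log2 0.32, limma unadjusted p = 0.0617). *Tcf12* had the lowest (-0.28). Of 13 inhibitors, *Id2*, whose product holds E proteins away from DNA, was the only one past the limit (log2 0.84, limma unadjusted p = 0.0388, adjusted p = 0.481). *Id2* was at 2.77 to 4.02 FPKM in WT and at 3.63, 7.46 and 8.0 FPKM in *HrasG12V* mice, high only in the 2 with lymphocyte transcripts. The call was lost when any mouse but 2276 was left out. Over all 6 sets of 5 mice the log2 fold change was 0.64 to 1.2. The lowest inhibitor was *Twist1* (-0.49, limma unadjusted p = 0.282). The median over the inhibitors was -0.06.

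Of 26 regulators and partners of MEF2 tested, 2 were higher and none lower, with a median of -0.10. The class IIa deacetylase gene *Hdac7*, whose product represses MEF2, had a log2 fold change of 0.44 (limma, unadjusted p = 0.0490, adjusted p = 0.491), which was lost without WT mouse 2277, 2280 or 2281 or mutant 2279 (0.29 to 0.52 over all sets of 5 mice). The p38β gene *Mapk11* was at 1.01, 1.05 and 1.08 FPKM in WT and at 1.43, 2.21 and 2.35 FPKM in *HrasG12V* mice. Its log2 fold change was 0.84 (limma, unadjusted p = 0.0125, adjusted p = 0.412). The 2 higher mutant values were those of the mice with lymphocyte transcripts, and mouse 2276 was also above every WT mouse. The call held as each mouse was left out (0.71 to 1.05) and with the length trend removed (0.83, limma unadjusted p = 0.0266). With the same total FPKM the log2 fold change was again 0.84, but its spread was larger and the call was lost (limma, unadjusted p = 0.135). Transcripts of the more abundant p38 kinases, *Mapk14* and *Mapk12*, named after their values were seen, had log2 fold changes of -0.21 and 0.12 and overlapped between the genotypes. The lowest of the list was *Vgll2*, a muscle cofactor of TEAD proteins (-0.68, limma unadjusted p = 0.252).

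Among 23 genes of satellite cells, their niche and Notch signaling, which keeps satellite cells quiescent, 4 were higher, 2 were lower and the median was -0.02. *Ncam1*, the adhesion molecule of myoblasts and of fibers without innervation, was at 4.45, 5.70 and 4.17 FPKM in WT and 9.35, 7.86 and 7.39 FPKM in *HrasG12V* mice (log2 0.77, limma unadjusted p = 0.00401, adjusted p = 0.355). It stayed past the unadjusted limit as each mouse was left out. *Spry1*, a feedback inhibitor of Ras signaling that satellite cells need to return to quiescence, was at 15.4 to 16.5 FPKM in WT and at 27.4, 17.6 and 25.3 FPKM in *HrasG12V* mice (log2 0.52, limma unadjusted p = 0.0408, adjusted p = 0.481). *Chrdl2*, which encodes a BMP antagonist, had a log2 fold change of 0.67 (limma, unadjusted p = 0.0468, adjusted p = 0.488). The call on *Spry1* (0.40 to 0.72) and that on *Chrdl2* (0.40 to 0.88) each held in only 1 of the 6 sets of 5 mice, the one without mouse 2278.

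*Vcam1*, an adhesion molecule of satellite cells and of inflamed endothelium, was at 2.93 to 3.36 FPKM in WT and at 3.35, 8.64 and 9.88 FPKM in *HrasG12V* mice. It was thus high only in the mice with lymphocyte transcripts (log2 1.05, limma unadjusted p = 0.0353, adjusted p = 0.481), and the call held in only 1 of the 6 sets (0.76 to 1.53), the one without mouse 2276. The lower genes were *Notch3*, a receptor that is also abundant in vascular smooth muscle (-0.45, limma unadjusted p = 0.0438), and the ligand gene *Dll1* (-0.50, limma unadjusted p = 0.0346). The *Notch3* call was lost with the length trend removed (-0.25, limma unadjusted p = 0.122) and held in 2 of the 6 sets (-0.59 to -0.31) and the *Dll1* call in 1 (-0.65 to -0.41). Of 5 smooth muscle and pericyte markers, *Rgs5* alone passed the unadjusted limit, with 189 to 217 FPKM in WT and 63.9 to 132 FPKM in *HrasG12V* mice, while the sum of the other 4 overlapped, at 84.1 to 173 and 61.7 to 132 FPKM. Their part in the *Notch3* values was not tested. *Megf10* had the lowest fold change (-0.62, limma unadjusted p = 0.0692). *Cdh15* and *Calcr*, markers of satellite cells named after their values were seen, overlapped between the genotypes, with log2 fold changes of -0.18 and 0.32.

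Targets of the MRFs and MEF2 included the largest changes among the lists. Of 20 tested, 3 were higher and 1 was lower at the unadjusted limit, 1 passed the adjusted limit, and the median was 0.09 over the 19 other than *Ckm*. *Chrna1*, the alpha subunit of the acetylcholine receptor and an E-box gene, was at 8.70, 11.1 and 11.0 FPKM in WT and 82.3, 54.5 and 83.4 FPKM in *HrasG12V* mice (log2 2.81, limma adjusted p = 0.0252). *Musk*, the kinase that gathers these receptors at the synapse, was at 3.2 to 5.94 FPKM in WT and at 6.0, 9.83 and 13.7 FPKM in *HrasG12V* mice. Its log2 fold change was 1.05 (limma, unadjusted p = 0.0221, adjusted p = 0.448), lost without WT mouse 2277 or 2281 or mutant 2278 or 2279 (0.78 to 1.37 over all sets).

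*Myl4*, the embryonic and atrial myosin light chain, was at 4.15, 5.22 and 5.27 FPKM in WT and 13.4, 7.58 and 7.89 FPKM in *HrasG12V* mice (log2 0.92, limma unadjusted p = 0.00902, adjusted p = 0.390). *Tmem8c* (myomaker), which is needed for myoblast fusion, was lower (-1.32, limma unadjusted p = 0.00686, adjusted p = 0.382). The gene of the other fusion protein, *Gm7325* (myomixer), named after its values were seen, had a log2 fold change of -0.71 and overlapped. *Ckm* was listed at 0 in 5 of the 6 mice and *Acta1* in all 6, although both are abundant in muscle, so no fold is given for them. The fiber marker *Tnnt3* was listed at 0 in mouse 2276 alone, beside 8444 to 10419 FPKM in WT mice. None of the 10 factors was listed at 0. Of the 13 genes of these lists past the unadjusted limit, 5 stayed past it with the same total FPKM (*Chrdl2*, *Ncam1*, *Tmem8c*, *Chrna1* and *Myl4*) although no fold change moved by more than 0.014 on the log2 scale, and 11 stayed past it with the length trend removed, all but *Id2* and *Notch3*.

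**Figure D5:**
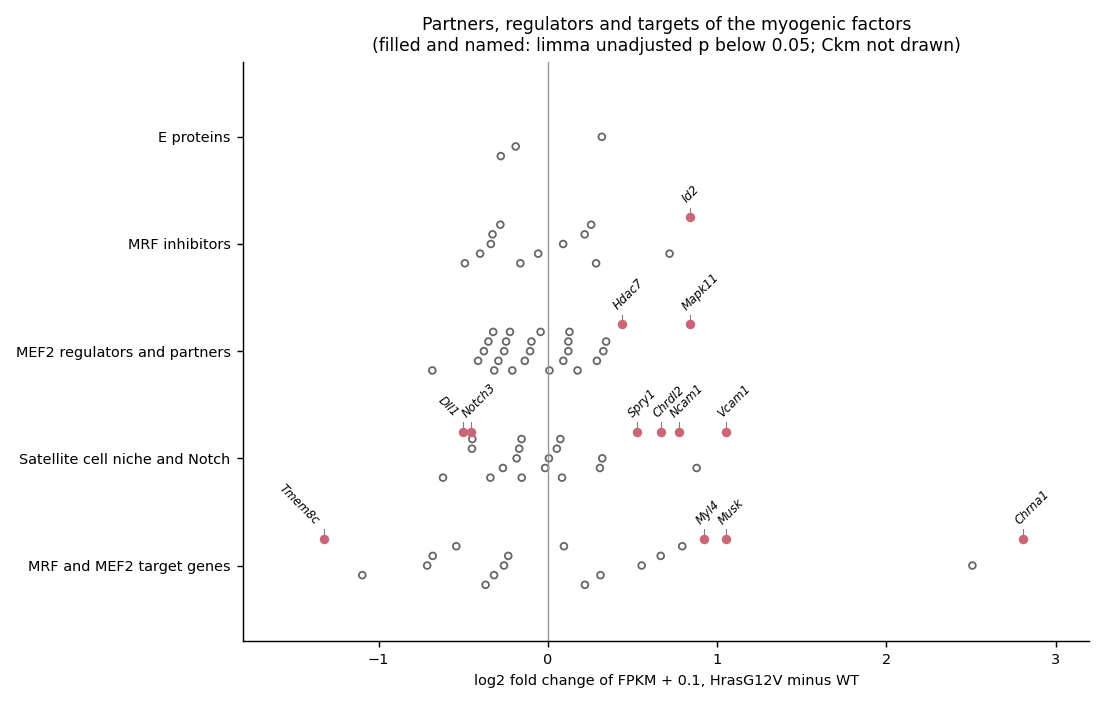
Log2 fold change, HrasG12V minus WT on the log2(FPKM + 0.1) scale, of each tested gene in the 5 lists of partners, regulators and targets, 1 point per gene, with vertical position within a list for legibility only. Filled and named points, set above the others, had an unadjusted limma p below 0.05. *Ckm* is not drawn. The E proteins hold no filled point, and the 2 filled points of the MEF2 regulators are both above 0.

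Summed markers of other cells also differed between mice. The summed FPKM of 5 proliferation markers was 1.43 to 2.93 in WT and 2.45, 12.4 and 4.29 in *HrasG12V* mice, and no single one of them passed the unadjusted limit. Adipocyte markers summed to 6.68 to 34.8 FPKM in WT and to 22.7, 107 and 77.9 FPKM in *HrasG12V* mice, Schwann cell markers to 80.3 to 252 and to 117, 353 and 429 FPKM, and macrophage markers to 37.2 to 42.4 and to 54.2, 70.6 and 42.7 FPKM. Of these only *Retn* of the adipocyte and *C1qa* of the macrophage markers passed the unadjusted limit (log2 2.10 and 0.59, limma unadjusted p = 0.0197 and 0.0472). Neither passed it with the length trend removed. The macrophage marker *Emr1* had a log2 fold change of -0.22, and the other 4 were above 0. Fibroblast markers overlapped, at 1473 to 2975 FPKM in WT and 742 to 2603 FPKM in *HrasG12V* mice. The sum of 6 muscle fiber markers, which holds the zeros of *Ckm*, *Acta1* and *Tnnt3*, also overlapped, at 38585 to 56357 and 30995 to 72347 FPKM. The order of the 3 mutants for *Pax7*, *Myf5* and *Msc* changed when the length trend was removed, so it is not set against these sums. The part of these cells in the values of the factors was not tested.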

How the data were processed

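Gastrocnemius RNA of 6 mice was examined, 1 library per mouse, grouped by the genotype in the labels. According to the methods the authors made stranded mRNA libraries, sequenced single-end reads, mapped them with TopHat and derived the deposited FPKM with Cufflinks and Cuffnorm. The submitters' processing notes name GRCm38 and mm10, and neither versions nor an annotation is stated (not given in the sources used here). From these FPKM, log2(FPKM + 0.1) was computed for the 13359 genes with a mean of at least 0.5 FPKM. The genotype difference was fitted in limma 3.58.1 (R 4.3.3), using empirical Bayes moderation with an abundance trend and no covariate, with Benjamini-Hochberg adjustment over all genes tested and limits of 0.05. Sex, litter and batch are not in the labels, and p-values measure the spread between these mice only. FPKM hold no read counts, so no counting error or count model was used.

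The 10 factors and the gene lists were chosen with earlier results of these data known. All 10 were described, and from each list the genes past the unadjusted limit and the highest and lowest fold change. Gene positions and transcript lengths came from GENCODE vM21 (GRCm38; 99.3% of the genes tested had a length), and promoters from RefSeq (GRCm38.p6). One further gene list is not reported here. The fit was run on simulated data with independent noise and the same SD of a gene in both genotypes. The simulation held neither the length trend of mouse 2276 nor the larger spread among mutants. Alternatives were pseudocounts of 1 and 0.01, filters of 1, 0.1 and none, quantile normalization, the same total FPKM, median centring, no or robust moderation, array weights and leaving out each mouse. Leaving out mice 2278 and 2279 together, and removing each library's loess trend over transcript length (span 0.3), were chosen after seeing the data. Summaries used pandas 2.3.3 and numpy 2.4.6 under Python 3.11.15, and plots matplotlib 3.10.9.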

Additional observations from a re-analysis of the deposited data

How the results depend on the processing

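Of the 9 factors, *Msc* kept its direction and its side of the unadjusted limit under all 19 alternatives, and *Pax7*, *Myf5*, *Mef2a* and *Mef2d* kept their direction under all 19. Over the 9 factors and their alternatives, 149 values kept their direction and side of the limit, 10 turned, 7 newly passed the limit and 5, all of *Pax7*, no longer did. The *Pax7* values that no longer passed were 0.45 with quantile normalization (limma unadjusted p = 0.0766), 0.54 and 0.56 when WT mouse 2280 or 2281 was omitted, 0.58 with totals made equal, and 0.44 without mice 2278 and 2279 (limma unadjusted p = 0.0586). *Myog* turned to -0.21 with array weights, -0.060 with the length trend removed, -0.13 without WT mouse 2277 and -0.35 without mouse 2276, and *Myf6* to -0.27, -0.064, -0.02 and -0.31 in the same order. Without mice 2278 and 2279, *Myod1* turned to 0.12 and *Mef2c* to 0.021, whereas they ranged from -0.47 to -0.04 and from -0.32 to -0.05 as single mice were left out, and *Myog* and *Myf6* were at 0.79 and 0.77. That fit rests on mouse 2276 alone, which is assumed to vary like the WT mice.

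The number of factors past the unadjusted limit was 2, against 1 with quantile normalization or the same total FPKM, 6 without mice 2278 and 2279, and 1 to 3 as each mouse was left out. Over all genes 1358 passed the unadjusted limit, against 712 with the same total FPKM, 3042 with array weights, 6312 without mice 2278 and 2279, and 606 to 3979 as each mouse was left out, the highest without mouse 2276. The adjusted limit was passed by 8 genes, against 5 with a pseudocount of 1, 1 without moderation, 572 with array weights, 4200 without mice 2278 and 2279, and 7 to 1291 as each mouse was left out. The cause of these changes was not tested. The WT mice were littermates of the mutants, but litter is not in the labels, so mice could not be paired by litter.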
